A study of Bos taurus with 8 samples.

Results

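In cattle, 218 of 21800 annotated genes were shared by whole testes and frontal cortex, in the sense that these were the 2 tissues with the highest levels and that both stood clear of the 6 other tissues. A gene here is a locus of the deposited table that carries an Ensembl transcript identifier and spans at least 300 bases and under 300 kb on the UMD3.1 assembly. Levels are FPKM, fragment numbers normalized to transcript length and to the mapped fragments of the library. A gene was a member when whole testes and frontal cortex had the highest values, both of at least 1 FPKM, and when the lower of them plus 1 was at least 3 times the third-highest tissue plus 1. The fold alone already requires a lower value of at least 2 FPKM. The members were chosen by their FPKM in the 8 tissues, so these levels are given as a description and no test was run on them. Members made up 1.0% of the genes.

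The study set DNA methylation of cattle tissues beside transcript levels, and RNA-Seq was performed on 8 tissues with 1 library each. Besides whole testes and frontal cortex, these were nucleated blood cells, mammary/parenchyma, uterus intercaruncular (the wall between the sites of placental attachment), the ileum of the small intestine, and the rumen and abomasum, which are a forestomach and the acid-secreting stomach. Total RNA extracted with TRIZOL went into TruSeq RNA v2 libraries, which do not keep the strand, and reads were single-end. The paper gives a sequenced Hereford cow and its relatives as the source of the methylation samples, and no treatment or genetic change was named. In the study's list of methylation samples of the same tissues, testes came from an adult male, frontal cortex, mammary gland, abomasum and ileum from juvenile females, uterus and blood from adult females, and rumen from a male fetus. Whether the RNA came from the same animals was not stated. Tissue, animal, sex and age cannot be told apart, and differences between tissues have no replicate check.

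The testis is known for transcribing an unusually broad set of genes, much of it in meiotic spermatocytes and in the haploid spermatids that build the sperm flagellum. The frontal cortex holds neurons, whose long axons and synapses rely on microtubules, vesicle traffic and RNA-binding proteins, together with glial cells. Transcripts in common between testis and brain have long been described in mammals, and both organs contain strongly polarized cells. In whole-tissue RNA, a lower level may mean fewer cells of a type or less RNA per cell, and these cannot be told apart. The 253 Ensembl transcript identifiers of the members were not found in the RefSeq gene table used here (assembly ARS-UCD2.0), so the members are given by position and not by symbol. Whether that table holds these genes under other identifiers was not examined. Their roles are not given, and the tissue labels could not be checked against marker genes.

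Read depth, recovered from the values of very short loci and on the scale set by the authors' software, was 10352000 reads in whole testes and 9347000 in frontal cortex, within a range of 6071000 to 15611000 over the 8 libraries. For a transcript of 1000 bases, 1 FPKM was 7.52 reads in testes and 6.79 in frontal cortex. The lowest member in frontal cortex, at 69899186 to 69918015 of chromosome 2, had 2.24 FPKM, or 15.2 reads on such a transcript with a 95% Poisson interval of 8.55 to 25. The lowest in testes, at 10613334 to 10724579 of chromosome 4, had 2.43 FPKM, or 18.3 reads with an interval of 10.9 to 28.8. In the other tissues 3 reads, the limit that a count of 0 allows, corresponded to 0.264 to 0.680 FPKM on 1000 bases. These intervals and limits cover counting error only.

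Across the 218 members, the level in whole testes ranged from 2.43 to 2099 FPKM with a median of 25.8, and the level in frontal cortex from 2.24 to 631 FPKM with a median of 23.0. The middle 50% of the members lay between 9.76 and 59.1 FPKM in testes and between 9.23 and 67.6 FPKM in frontal cortex. The lower of both values had a median of 12.7 FPKM, reached 10 FPKM in 125 members and reached 100 FPKM in 17. The third-highest tissue had a median of 1.49 FPKM over the members and a highest value of 104 FPKM. On the scale of FPKM + 1, which understates the difference for low genes, the fold of the lower value over the third-highest ranged from 3.0 to 138 with a median of 4.44. It was at least 5 in 93 members and at least 10 in 27. The plot of levels by library shows both high tissues at similar heights and the other 6 near the bottom of the scale.

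**Figure D1:**
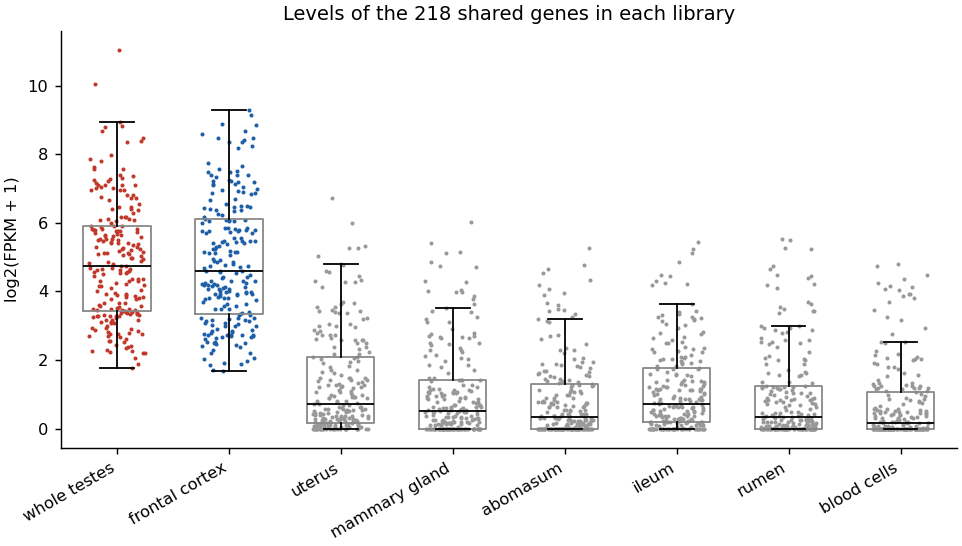
Level of each of the 218 members in each of the 8 libraries, as log2(FPKM + 1). Each point is 1 gene, boxes span the middle 50% with a line at the median, and whiskers reach the farthest gene within 1.5 box heights, with medians of 25.8 FPKM in whole testes and 23.0 FPKM in frontal cortex against 0.121 to 0.654 FPKM in the other tissues.

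The member with the highest lower value lay on the X chromosome, from 81945675 to 82223229, and carried 3 transcript identifiers. It was listed at 1061 FPKM in whole testes and 631 FPKM in frontal cortex. Its level was 21.0 FPKM in uterus, 19.0 in abomasum, 14.7 in mammary gland, 14.3 in blood cells, 9.04 in ileum and 6.29 in rumen. This gene was thus listed with a level in all 8 tissues, and its fold over the third-highest was 28.7. It overlapped 4 other annotated loci, and the libraries do not keep the strand, so the part of its reads that belongs to those loci is unknown.

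The largest fold belonged to a short gene near the end of chromosome 3 (ENSBTAT00000027436, 120133413 to 120134627). Whole testes had 453 FPKM and frontal cortex 413 FPKM, while ileum had 2.0 FPKM and rumen 0.808 FPKM. Uterus, mammary gland, abomasum and blood cells were listed at 0, and the fold was 138. Testes and cortex were nearly level in this gene, and ileum and rumen were above the limit set by 3 reads on 1000 bases.

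A gene at 14904741 to 15137175 of chromosome 28 had the next largest fold, of 90.3. It reached 147 FPKM in testes and 116 FPKM in cortex, and no other tissue passed 0.297 FPKM, the value in ileum. At 47311874 to 47472004 of chromosome 2, a gene with 111 FPKM in testes and 86.1 FPKM in cortex had 1.45 FPKM in ileum and at most 0.161 FPKM elsewhere, for a fold of 35.6. Of the 27 members with a fold of at least 10, 17 differed by less than 2-fold between testes and cortex, 8 were higher in cortex and 2 were higher in testes. Over all 218 members these classes held 102, 58 and 58. The fold is taken from the lower of both values, which favours genes with similar levels, so nothing is read from these counts.

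The other 4 of the 8 largest folds, between 22.6 and 24.9, all had a higher value in frontal cortex than in testes, by under 2-fold on chromosomes 21 and 11. At 52649429 to 52844833 of chromosome 22 testes had 65.9 FPKM and cortex 141 FPKM, with 1.69 FPKM in uterus as the third-highest. At 31081077 to 31140268 of chromosome 21 the levels were 41.4 FPKM in testes, 67.5 in cortex and 0.832 in mammary gland. At 72355995 to 72373385 of chromosome 11 they were 48.4 FPKM in testes, 83.5 in cortex and 1.16 in uterus. At 50786028 to 50787808 of the X chromosome they were 41.1 FPKM in testes, 92.1 in cortex and 0.861 in abomasum. Both X-linked genes named so far were among the 11 members on that chromosome, which held 5.05% of the members and 4.37% of all genes.

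High level and high fold did not always go together. The highest single value of any member was 2099 FPKM in testes, for a gene at 33768050 to 33770824 of chromosome 3. Its level in frontal cortex was 358 FPKM. Uterus had 104 FPKM, mammary gland 64.6, ileum 36.6, rumen 25.6 and abomasum 24.1, so the fold was 3.42. Blood cells were listed at 0, although the 5 other low tissues all had at least 10 FPKM, and this was the only member with that combination. The table marked no failed estimate for any of the 218 members, this one included, and the 0 in blood cells is given as listed.

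At 41710701 to 41725423 of chromosome 29, a gene had almost the same level in testes (332 FPKM) and cortex (329 FPKM), with 25.7 FPKM in blood cells to 45.6 FPKM in rumen elsewhere. A second member was listed on exactly these coordinates, with 35.5 FPKM in testes, 300.5 FPKM in cortex and 5.0 FPKM in ileum. The kit does not keep the strand, so the split of reads between these overlapping genes is uncertain. Of all members, 63 overlapped another annotated locus (28.9%, against 29.5% of all genes). Among these 63 were the genes at 81.95 Mb of the X chromosome and 14.90 Mb of chromosome 28. Those at 52.65 Mb of chromosome 22 and 72.36 Mb of chromosome 11 were also among them. The split of reads is uncertain for these genes too.

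The remaining 4 of the 8 highest lower values were at 27.92 Mb of chromosome 15, 63.09 Mb of chromosome 18, 59.09 Mb of chromosome 22 and 28.16 Mb of chromosome 19. The gene at 27919930 to 27934287 of chromosome 15 had 327 FPKM in testes, 460 in cortex, 63.1 in uterus and 33.8 in mammary gland, and between 0.353 FPKM in blood cells and 7.80 FPKM in ileum in the rest. The gene at 63090945 to 63104304 of chromosome 18 had 191 FPKM in testes and 472 in cortex, and at most 9.74 FPKM, in uterus, elsewhere. The genes at 59089572 to 59103703 of chromosome 22 (150 FPKM in testes and 168 in cortex) and at 28156792 to 28206841 of chromosome 19 (155 and 149 FPKM) were present at 6.71 FPKM or more in every other tissue. The last 2 genes were thus listed with a level in all 8 tissues, although the chromosome 19 gene overlapped 4 other annotated loci. The chromosome 15 gene in blood cells was near the limit of 0.342 FPKM set by 3 reads on 1000 bases.

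The balance between the 2 tissues was then described. Testes were higher in 114 of the 218 members, or 52.3%. Over the 11182 genes with at least 1 FPKM in both tissues the share was 55.2%, and over the 1304 genes with the same 2 highest tissues but a fold under 3 it was 62.5%. With libraries scaled to the same upper quartile this share was 42.3%, over the 163 genes that then met the rule. It was also under 50% at a fold of 5 (48.4%), with only loci of 1 identifier found once (48.9%) and without mammary gland (49.8%). The upper-quartile scaling moved the median log2 ratio of testes to cortex over the same 11182 genes from 0.17 to -0.24, and scaling to the same summed FPKM moved it by -0.04. No direction of the balance is therefore stated. The median log2 ratio over the members, on the FPKM + 1 scale as deposited, was 0.05, with a range from -4.89 to 5.94.

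With a difference of at least 2-fold on the FPKM + 1 scale as deposited, 58 members were higher in testes, 58 were higher in frontal cortex, and 102 lay between and are called balanced. Over all genes the same criterion was met by 25.6% for testes over cortex and by 15.2% for cortex over testes. The balanced members had the highest lower-of-both values, with a median of 21.3 FPKM, against 8.36 FPKM in the members higher in testes and 10.1 FPKM in those higher in cortex. Their third-highest tissue was also higher, at a median of 2.10 FPKM against 0.98 and 0.935 FPKM. The rule used all of these values, so nothing is read from the differences between the classes.

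**Figure D2:**
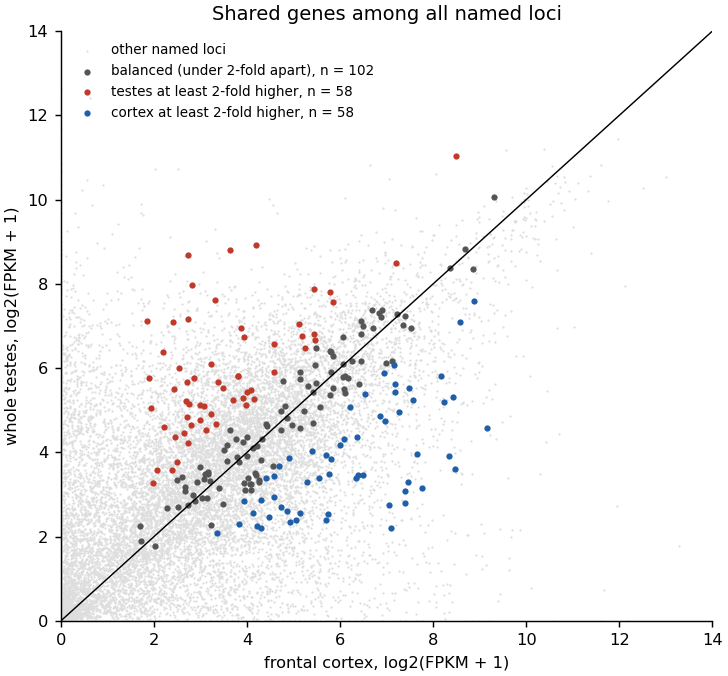
Level in whole testes against level in frontal cortex, both as log2(FPKM + 1), for the 218 members (dark points balanced, red points higher in testes, blue points higher in cortex) over all 21800 genes in grey. The black line marks equal levels, and the 102 balanced members lie along it with 58 members on each side.

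At the testes end, the gene at 29630843 to 29650953 of chromosome 29 (ENSBTAT00000005587) had 409 FPKM in testes and 5.68 FPKM in cortex, a log2 ratio of 5.94. The other tissues had at most 0.804 FPKM, in mammary gland, and uterus and abomasum were listed at 0. At 85628530 to 85729600 of chromosome 1, testes had 137 FPKM and cortex 2.62 FPKM, and the 6 other tissues were all listed at 0. At 17575002 to 17621796 of chromosome 17 the levels were 444 FPKM in testes and 11.5 in cortex, with 0.988 FPKM or less elsewhere. At 56607511 to 56616800 of the same chromosome they were 249 FPKM in testes and 6.07 in cortex, with 1.34 FPKM in uterus and 1.24 FPKM in blood cells. In these genes the cortex level was a small part of the testes level, and the rule requires it to be above every other tissue.

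At the cortex end, the gene at 14254486 to 14259736 of chromosome 3 (ENSBTAT00000020956) had 136 FPKM in cortex and 3.61 FPKM in testes, a log2 ratio of -4.89. Mammary gland had 0.233 FPKM, and the other 5 tissues were listed at 0. At 65111008 to 65171112 of chromosome 17 cortex had 353 FPKM and testes 11.1 FPKM, and ileum had 1.64 FPKM. The gene at 106976317 to 106988248 of chromosome 3 (ENSBTAT00000019321) had 216 FPKM in cortex, 7.95 in testes and 0.442 in ileum. At 2948773 to 3014380 of chromosome 14, a locus with 4 identifiers had 167 FPKM in cortex and 5.97 in testes, with at most 0.478 FPKM elsewhere. In these genes the order was the reverse of that in the testis-leaning ones, and the rule holds down the levels in the low tissues here too.

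Among members above the median lower value, those with the most equal levels were at 15096001 to 15117197 of chromosome 26, with 18.9 FPKM in both tissues, and at 62411910 to 62417864 of chromosome 10, with 16.3 FPKM in testes and 16.4 in cortex. The first had 3.05 FPKM in ileum and 0.984 in uterus, and the second had 4.22 FPKM in uterus, with all remaining tissues listed at 0. The chromosome 29 gene at 332 and 329 FPKM was the next most equal. These equalities hold for the deposited scaling alone.

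**Figure D3:**
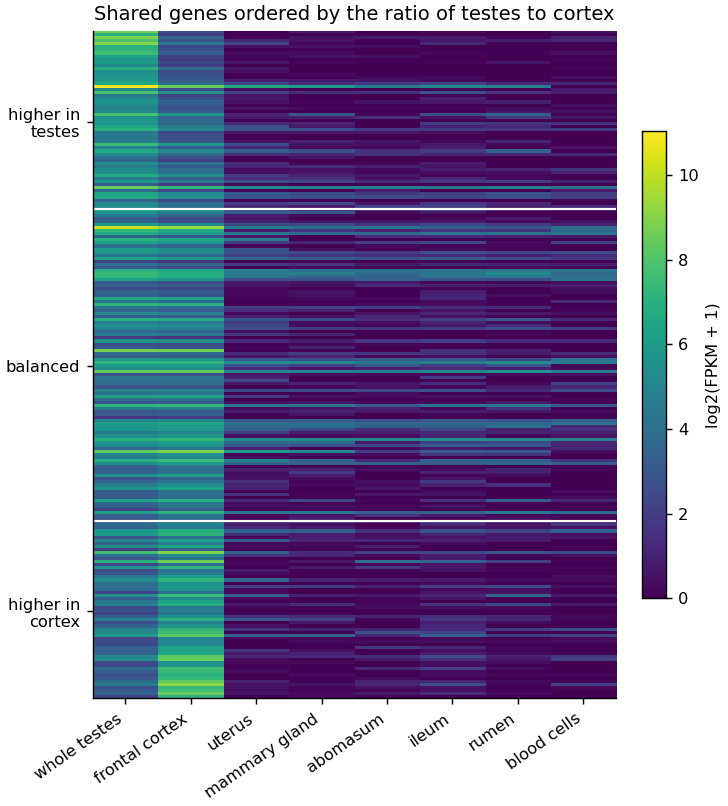
Level of the 218 members (rows, ordered by the ratio of whole testes to frontal cortex) in the 8 libraries (columns), coloured by log2(FPKM + 1). White lines separate 58 members higher in testes at the top, 102 balanced members and 58 members higher in cortex at the bottom, and the rows that are also bright in the other 6 columns are most frequent in the balanced block.

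Expression outside testes and cortex differed from member to member. None of the 6 other tissues reached 1 FPKM in 89 members, 1 tissue did in 31, and 2 tissues did in 29. At the other extreme, all 6 reached 1 FPKM in 38 members and 5 in 17, while 3 or 4 tissues did in 8 and 6. As shares, no other tissue reached 1 FPKM in 40.8% of the members and all 6 did in 17.4%, against 32.0% and 42.0% of all genes, and the rule used these levels. Among balanced members 25 of 102 (24.5%) reached 1 FPKM in all 6 tissues, against 7 of 58 (12.1%) of those higher in testes and 6 of 58 (10.3%) of those higher in cortex.

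In 10 members all 6 other tissues were listed at 0 (4.59%, against 21.8% of all genes, which include genes at 0 in all 8 tissues). The share was 0.206% over the 11182 genes with at least 1 FPKM in both testes and cortex. It was 0.997% over the 1304 genes with the same 2 highest tissues but a fold under 3. The rule holds down these levels in the members. The highest of these 10 by its lower value was at 64079844 to 64080463 of the X chromosome, with 23.9 FPKM in testes and 5.95 in cortex. A gene at 57018703 to 57145865 of chromosome 20 had 142 FPKM in testes and 5.67 in cortex. At 9207870 to 9224803 of chromosome 7 the levels were 5.46 FPKM in testes and 25.6 in cortex, and at 106811687 to 106879778 of chromosome 5 they were 4.21 and 32.2 FPKM. All 10 had a lower value under 6 FPKM, and at this depth a level below 0.680 FPKM on a transcript of 1000 bases was not detectable in every library. For a shorter transcript this limit is higher, and the X chromosome gene spanned only 620 bases.

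Taking the low tissues separately, uterus had at least 1 FPKM in 92 members (42.2%), ileum in 91 (41.7%), mammary gland in 74 (33.9%), rumen in 70 (32.1%), abomasum in 66 (30.3%) and blood cells in 57 (26.1%). The shares over all genes were 57.1% in uterus, 58.5% in ileum, 56.6% in mammary gland, 53.6% in rumen, 56.4% in abomasum and 50.0% in blood cells. The rule holds down the level in these 6 tissues, so lower shares among members follow from it. The median member level was 0.632 FPKM in uterus and 0.654 in ileum, and 0.121 FPKM in blood cells. Blood cells were listed at 0 in 93 members (42.7%) and uterus in 28 (12.8%). The shares were 36.0% and 29.2% over all genes, which include genes at 0 in all 8 tissues, and 13.96% and 3.60% over the 1304 genes with the same 2 highest tissues but a fold under 3.

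The third-highest tissue was most often uterus, in 70 of the 208 members with any level outside testes and cortex. Ileum held this place in 42, mammary gland in 28, blood cells in 26, rumen in 24 and abomasum in 18. As shares of all 218 members, uterus had 32.1%, ileum 19.3% and rumen 11%. Among the 1304 genes that also had testes and cortex as their highest tissues but fell under the fold of 3, uterus held it in 30.6%, ileum in 9.66% and rumen in 23.4%. Uterus led in both sets, ileum preceded rumen in the members, and rumen preceded ileum in the other set. Within the members, uterus was next in 26 of the 58 higher in testes and ileum in 3, whereas in the 58 higher in cortex ileum was next in 19 and uterus in 13. With libraries scaled to the same summed FPKM the rumen count fell to 10, and at the same upper quartile to 15. These are counts over genes of the same 8 libraries and were not tested.

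At the threshold, the 3 members just inside had folds from just above 3 to 3.01. They were a gene at 43869995 to 43988950 of chromosome 10 with 51.0 FPKM in testes, 26.4 in cortex and 8.13 in uterus, a gene at 52521261 to 52524685 of chromosome 15 with 128 FPKM in testes, 162 in cortex and 42.1 in ileum, and a gene at 39911497 to 39913651 of chromosome 19 with 44.8 FPKM in testes, 10.2 in cortex and 2.72 in rumen. The 3 genes just outside had folds of 2.96 to 2.97. They lay at 3702330 to 3711347 of chromosome 7 (20.3 FPKM in testes, 2.59 in cortex and 0.21 in ileum), at 50077666 to 50154892 of chromosome 18 (26.5, 66.7 and, in rumen, 8.27) and at 89488356 to 89524590 of chromosome 10 (4.65, 10.9 and, in mammary gland, 0.91).

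The same rule was applied to each of the 28 pairs of tissues to see how many genes each pair shared. Whole testes and frontal cortex had the most, with 218. Ileum and blood cells followed with 134 (0.615% of genes), abomasum and ileum with 74 (0.339%), and whole testes and uterus with 59 (0.271%). The fewest, 2, were shared by uterus and blood cells. This order rested in part on a single library: without mammary gland, ileum and blood cells shared 255 genes and testes and cortex 237. Taken alone, 2521 genes (11.6%) had testes at least 3 times the highest of the 6 other tissues and 1081 (4.96%) had cortex so. The 218 members were 8.65% of the first list and 20.2% of the second. Both lists are measured against the same 6 libraries, so nothing is read from their overlap.

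**Figure D4:**
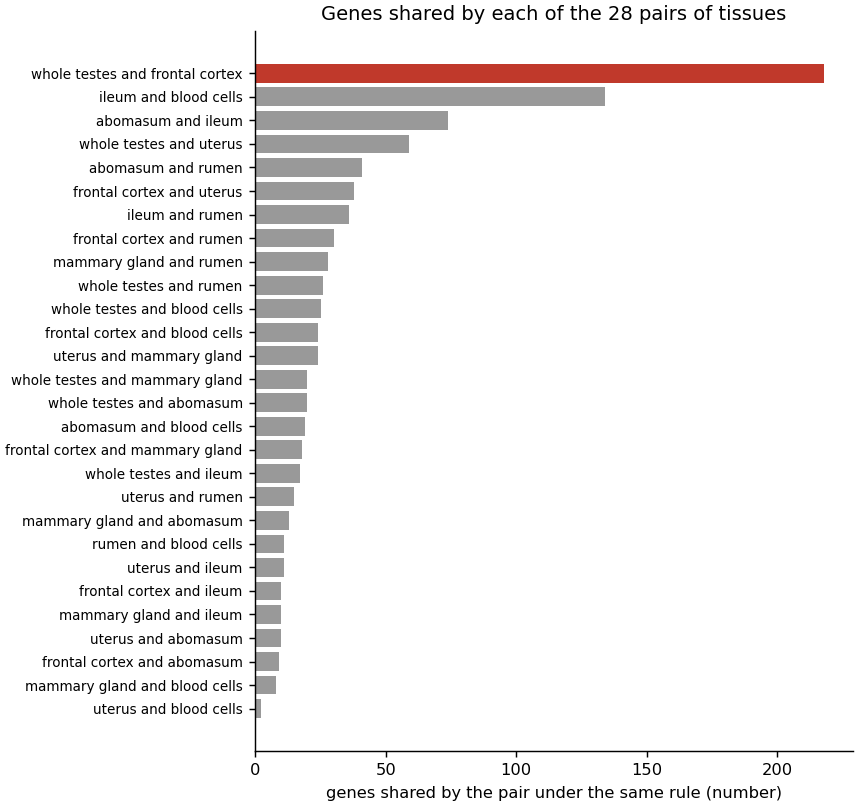
Number of genes that meet the same rule for each of the 28 pairs of tissues, as bars starting at 0. Whole testes and frontal cortex (red) share 218, ileum and blood cells 134, and the remaining pairs 74 or fewer.

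Position and length were not used by the rule beyond the span limits. The members spanned a median of 27276 bases, against 22526 over all genes and 28288 over the genes with at least 1 FPKM in both testes and cortex. Genes under 10 kb were 19.7% of the members and 32.6% of all genes, and 21.6% of those with at least 1 FPKM in both. The length of the members was thus near that of other genes expressed in both tissues. Balanced members had a median span of 33944 bases, those higher in testes 26412 and those higher in cortex 21126. Several identifiers stood on 23 members (10.6%, against 9.0% of all genes), so the level of those loci is a sum over transcripts, and 25 members (11.5%, against 6.94% of all genes) carried an identifier that also stood at another locus. The genes named above at 81.95 Mb of the X chromosome, 85.63 Mb of chromosome 1, 72.36 Mb of chromosome 11 and 57.02 Mb of chromosome 20 are among these 25, and their levels are uncertain for that reason.

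Members were found on all 30 chromosomes. Chromosome 17 had the highest share, with 14 of 612 genes (2.29%), followed by chromosome 13 with 14 (1.83%), and chromosome 19 had the most in number, with 19 (1.52%). Chromosome 18 had 4 of 1181 genes (0.339%), chromosome 9 had 2 and chromosome 27 had 1. These shares rest on few genes each and were not tested. Chromosomes 17 and 13 were also above all genes in the 2 lists of single tissues. In the testes list they had 16.3% and 15.8% of their genes, against 11.6% of all genes. In the cortex list they had 7.84% and 6.66%, against 4.96%.

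**Figure D5:**
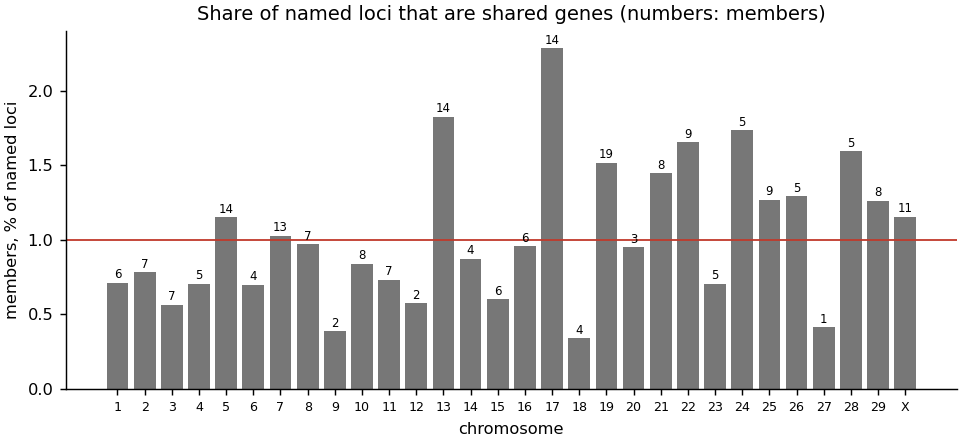
Members as a percentage of the genes on each chromosome, as bars starting at 0 with the number of members printed above each bar. The red line marks the 1.0% of all genes, and chromosome 17 reaches 2.29% with 14 members while chromosome 18 reaches 0.339% with 4.

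Within 100 kb of each other lay 28 members (12.8%), in 14 pairs, and no run held more than 2. Of these, 1 pair is the 2 genes on the same coordinates of chromosome 29. The share expected from the spacing of genes was not computed. The pairs named here were chosen after their values were seen. On chromosome 18, genes at 57194637 to 57206253 and 57207630 to 57254040 were both higher in cortex, with 54.5 and 52.1 FPKM there and 13.4 and 4.76 FPKM in testes. On chromosome 17, genes at 74068674 to 74092409 and 74109008 to 74113523 were both higher in testes, with 131 and 55.2 FPKM there and 33.6 and 13 FPKM in cortex. Other neighbours were unlike in level. On chromosome 22, the gene at 51773487 to 51786286 had 100.4 FPKM in testes and 42.9 in cortex, and the one at 51793227 to 51820381 had 5.46 and 4.75 FPKM.

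With gaps of up to 1000 kb, 74 members fell into 30 runs, and the longest held 7 members among 45 genes on chromosome 19 (44742102 to 46644713). The number expected from the spacing of genes was not computed for this gap, and the run was named because it was the longest. Its members did not share a direction, since 3 were higher in cortex, 2 were higher in testes and 2 were balanced. The gene at 44742102 to 44751796 had 341 FPKM in cortex and 38.5 in testes, and the gene at 45859214 to 45866764 had 5.54 FPKM in cortex and 50.2 in testes. The last of the run, at 46524375 to 46644713 with 7 identifiers, had 68.7 FPKM in testes, 127 in cortex and 10.2 in rumen.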

How the data were processed

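The authors filtered single-end reads and aligned them to UMD3.1 with TopHat2 (2.0.13 in the submitters' processing notes), and compared transcripts with Cufflinks. The deposited values are FPKM, which the authors' software normalized to transcript length and mapped fragments and scales between libraries by default. The authors' log2 fold changes, test statistics, p-values and q-values for pairs of tissues were not used. The 8 libraries were grouped by tissue label. Of 36801 loci, 24886 carry an identifier and 21800 of these span at least 300 bases and under 300 kb. Members, lists and the naming rule were chosen with earlier results of these data known. Named were the 8 highest lower values, the 8 largest folds, the 4 genes at each end of the ratio, the 3 on each side of the threshold and the 3 most equal. The longest run of neighbours was a tie, so pairs were picked after their values were seen. With 1 library per tissue, no test was run. Depth was recovered from loci of 88 to 130 bases, with fragments of mean 200 and SD 80 bases and none under 87, and 97.2 to 100% of values were whole reads within 0.03. Python 3.11.15, pandas 2.3.3 and scipy 1.17.1 were used, and the scripts were tested on simulated data. Alternatives changed the fold, pseudocount, minimum, span limits, scaling, loci and libraries. Marker lists by symbol are not analysed here.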

Additional observations from a re-analysis of the deposited data

Results flagged for a closer look

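The same pattern was found in data that the report did not use, at loci of the table that carry no gene identifier. Of 9232 such loci spanning at least 300 bases and under 300 kb, 77 (0.834%) had whole testes and frontal cortex as the 2 highest tissues with the fold of 3 or more. The count was 184 at a fold of 2, 25 at a fold of 5 and 41 at a minimum of 5 FPKM. No other pair of tissues had more of these loci under the rule. Of the 77 loci, 34 (44.2%) were listed at 0 in all 6 other tissues. The share at 0 over all 9232 loci was not computed, and the rule used these levels. The lower value of the 77 loci had a median of 5.17 FPKM and their median span was 2310 bases. All 77 were above 3 reads in both tissues, the limit that a count of 0 allows, if the transcript fills the locus. The largest fold was at 39661111 to 39680415 of chromosome 21, with 36.5 FPKM in testes, 22.1 FPKM in cortex and 0 listed elsewhere. The highest lower value among the 3 largest folds was at 14664285 to 14689278 of chromosome 12, with 115 FPKM in testes, 114 FPKM in cortex and 5.04 FPKM in abomasum. Within 5000 bases of a member lay 9 of the 77, and 1 of these, at 7431994 to 7582767 of chromosome 14, had exactly the coordinates of a member. The share of all 9232 loci within this distance was not computed. The locus at 14666027 to 14904508 of chromosome 28, with 18.7 FPKM in testes and 59.0 FPKM in cortex, ended 232 bases before the member at 14904741, which had the second largest fold of the 218. Whether such loci belong to the neighbouring gene was not tested.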

How the results depend on the processing

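The count of members depended on the fold and the pseudocount: it was 434 at a fold of 2, 93 at a fold of 5 and 333 with a pseudocount of 0.1, and between 163 and 312 under the other settings. The share higher in testes was 42.3% with libraries scaled to the same upper quartile. The pair of testes and cortex had the highest count of all pairs except without mammary gland, where it came to rank 2 of 21 pairs. The share higher in testes also fell under 50% at a fold of 5, with loci of 1 identifier found once and without mammary gland, and the cause was not tested. In the settings other than the upper quartile it ranged from 48.4 to 55.8%. The depth limits what can be said of genes listed at 0. No paired analysis was possible because there was a single library per tissue, without any test.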

Other observations

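The span limits left out 17 of 1008 annotated loci of 300 kb or longer that had the same pattern (1.69%), with none listed at 0 in all 6 other tissues. The largest fold was at 54722285 to 55906462 of chromosome 11, with 37.9 FPKM in testes, 48.5 FPKM in cortex and 0.912 FPKM in ileum, a fold of 20.4. A locus at 66763091 to 67112090 of chromosome 7 had 21.3 FPKM in testes and 43.4 FPKM in cortex, against 0.958 FPKM in abomasum. At 20256326 to 20804988 of chromosome 29, testes had 169 FPKM, cortex 23.7 FPKM and mammary gland 2.30 FPKM. Very short loci seldom carried the pattern with an identifier, in 1 of 2078 loci under 300 bases (0.0481%), and did so in 31 of 2542 without one (1.22%). Of these 31, 29 were listed at 0 in the 6 other tissues, and the share at 0 over all 2542 was not computed. Among the long annotated loci no other pair of tissues had more under the rule. Among the short ones, 3 other pairs had more where an identifier was present and 6 where it was not.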
